A study of Mus musculus with 18 samples.

Results

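The Ly49 receptors are encoded by the Klra genes, a cluster on the minus strand of mouse chromosome 6. The 7 genes described here, Klra1, Klra3, Klra5, Klra6, Klra7, Klra9 and Klra10, were taken by symbol from the count table, in which 15582 genes had a count. Of these 7, 6 had a count and 6 passed the filter on low counts, and Klra6 had 0 counts in each of the 18 libraries. Thymic invariant NKT (iNKT) cells, T cells that bind CD1d loaded with glycolipid, were sorted from wild-type (WT) and SKG mice on the BALB/c background. SKG mice carry a point mutation in the C-terminal SH2 domain of ZAP70, the kinase next to the T cell receptor, and the WT and SKG mice were the third generation bred separately from a cross of BALB/cJ and SKG animals. The sort gave NKT1 cells (CD1d tetramer+, ICOS low, CD49a+), NKT2 cells (tetramer+, CD49-, Sdc-1-, ICOS high, CD4 high, TCRβ high) and NKT17 cells (tetramer+, CD49-, ICOS high, Sdc-1+), with 3 libraries for each of the 6 groups. The sources give no ages, and do not say which animals, or how many, each library came from, so p-values measure the spread between these libraries. The change in Zap70 is a point mutation, which counts per gene do not check.

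Ly49 molecules are lectin-like receptors that sit on natural killer (NK) cells, and on some T cells, as paired chains. Most bind classical MHC class I, and the inhibitory ones carry a tyrosine motif (ITIM) in the tail inside the cell that recruits the phosphatase SHP-1, while the activating ones signal through the adaptor DAP12. NKT1 cells take on many NK receptors as they mature in the thymus. Inbred strains differ in which Ly49 genes they carry, and the cells here are BALB/c while the reference genome is C57BL/6. The effect of that difference on the counts was not tested.

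All 7 genes encode receptors with the inhibitory motif in this reference. The first 60 coding bases of each (GENCODE M1 transcript 001, NCBIM37) are shown because they hold the motif, whose codons, coding bases 16 to 33, are in capitals.

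Klra1 (Ly49A), chr6:130313936-130336892: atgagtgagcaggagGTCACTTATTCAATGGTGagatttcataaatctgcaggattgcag
Klra7 (Ly49G), chr6:130168849-130183340: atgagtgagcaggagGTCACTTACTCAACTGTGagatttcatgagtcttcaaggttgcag
Klra3 (Ly49C), chr6:130273307-130287592: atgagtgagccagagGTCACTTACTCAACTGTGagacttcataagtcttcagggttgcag
Klra9 (Ly49I), chr6:130128771-130143130: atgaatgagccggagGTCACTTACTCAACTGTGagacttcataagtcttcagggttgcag
Klra10 (Ly49J), chr6:130219212-130231946: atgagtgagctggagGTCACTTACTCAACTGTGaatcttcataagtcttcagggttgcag
Klra5 (Ly49E), chr6:129849145-129867668: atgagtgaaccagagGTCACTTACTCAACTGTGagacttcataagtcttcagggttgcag
Klra6 (Ly49F), chr6:129963051-129976972: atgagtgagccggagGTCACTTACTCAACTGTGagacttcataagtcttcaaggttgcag

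The genes resemble each other so closely that a short read may not tell them apart. Over the whole coding sequence, Klra3 was 95.9% identical to Klra9 and 96.2% to Klra10, and Klra9 and Klra10 were 96.9% identical. Klra1 and Klra7 formed a second pair, at 88.1%, and each was 80.0% to 83.0% identical to the other 5. The middle of the Klra3 coding sequence (bases 376 to 425, the 50 bases of one read) is shown beside the same stretch of its closest relatives and of Klra5, with bases that differ from Klra3 in capitals.

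Klra3: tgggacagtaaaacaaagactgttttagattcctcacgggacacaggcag
Klra9: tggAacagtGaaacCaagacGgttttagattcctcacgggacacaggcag
Klra10: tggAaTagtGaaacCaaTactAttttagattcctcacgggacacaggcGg
Klra5: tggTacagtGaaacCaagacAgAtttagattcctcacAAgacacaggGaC

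Every 50-base window of each transcript was searched for in the protein-coding transcripts of all other genes. With up to 2 mismatches, 91.3% of the Klra10 windows, 90.5% of the Klra3 windows and 83.8% of the Klra9 windows were found in another gene. The shares were 44.2% for Klra6, 29.4% for Klra5, 19.2% for Klra1 and 7.15% for Klra7. Klra7 had no window in exact common with another gene. In the reference, most windows of Klra7, Klra1 and Klra5 were thus their own, while Klra3, Klra9 and Klra10 counts are uncertain, since reads could have been split or lost among the 3. For Klra3, 67.4% of windows were shared exactly, and 20.4% when 1 annotated Klra9 transcript that runs over the Klra3 exons was left out. With up to 2 mismatches, leaving it out lowered the Klra3 share from 90.5% to 81.1%. How far such sharing shaped the counts was not tested.

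**Figure D1:**
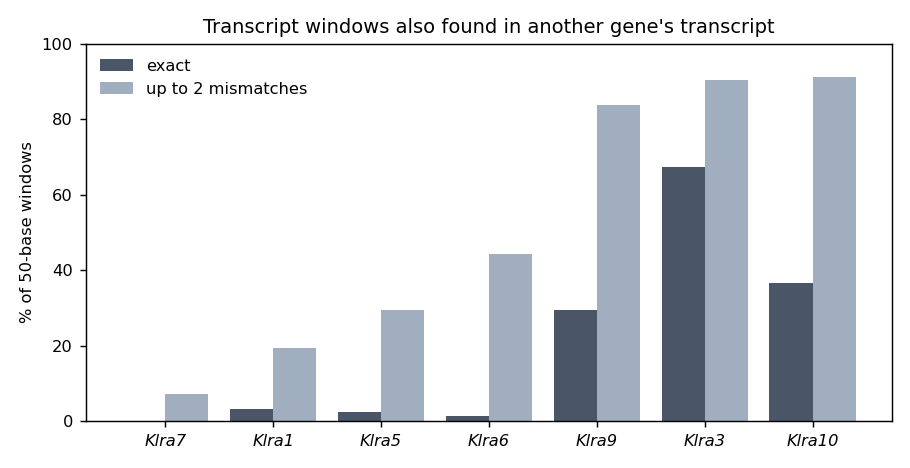
Share of 50-base windows of each Klra transcript (x axis) that also occurs in a protein-coding transcript of another gene, in percent (y axis), exactly (dark bars) or with up to 2 mismatches (light bars). Klra7 and Klra1 lie at 7.15% and 19.2% with mismatches allowed, and Klra9, Klra3 and Klra10 at 83.8% to 91.3%.

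Total counts per library ran from 4391029 to 8895917, and levels are given as CPM, the counts divided by library sizes over the genes tested that were scaled by edgeR's TMM factors (0.928 to 1.07). Where no library of a group had more than 3 counts, the group was treated as at the floor and a fold against it is a lower bound. In bulk libraries, fewer cells with a receptor and less RNA per cell cannot be told apart. The labels were checked against marker genes. The 6 NKT1 markers (Tbx21, Il2rb, Ifng, Cxcr3, Xcl1, Klrd1) summed to 3948 to 5607 CPM in NKT1 libraries and to 161 to 424 CPM in the others. The 6 NKT2 markers (Zbtb16, Gata3, Icos, Il4, Il17rb, Il13) summed to 1499 to 2201 CPM in NKT2, but also to 1495 to 1801 CPM in NKT17. In NKT1 libraries, markers of red cells, B cells, double-positive thymocytes and the myeloid lineage each summed to at most 13.8 CPM.

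In WT mice, Klra transcripts were abundant in NKT1 cells. The 7 genes together gave 1846 to 2429 CPM per WT NKT1 library, 40.7 to 87.7 CPM per WT NKT2 library and 0.961 to 2.61 CPM per WT NKT17 library. All 6 genes tested reached the call for a higher level in NKT1 than in NKT2 (edgeR quasi-likelihood test, Benjamini-Hochberg adjusted p under 0.1 and a fold of at least 1.5), where 13.7% of all genes were called in that direction. The same 6 were called higher in NKT1 than in NKT17 cells (11.2% of all genes), and in NKT2 than in NKT17 cells (8.97%). By these calls the order of the subsets was NKT1, NKT2, NKT17 for each of the 6 genes in WT mice. For Klra7, Klra9 and Klra10, the step from NKT2 to NKT17 rests on at most 11 counts per library. These genes did not pass the filter on low counts when only the WT NKT2 and WT NKT17 libraries were fitted.

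Klra1 encodes Ly49A, a receptor for H-2D molecules of the BALB/c type. It was at 435, 348 and 400 CPM in the WT NKT1 libraries, at 25.5, 6.47 and 7.27 CPM in WT NKT2, and at 0.390, 0.174 and 0.412 CPM in WT NKT17. WT NKT2 replicate 1 stood above the other two, and its summed NKT1 markers were also the highest of the 3 (424 CPM against 299 and 366 CPM), the part of which was not tested. No subset overlapped another. The level in NKT1 was 30.1-fold that in NKT2 (log2 fold change 4.94, SE 0.43, adjusted p = 4.84e-07), and at least 779-fold that in NKT17. Without WT NKT2 replicate 1 the log2 fold change was 5.82.

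Klra7, which encodes Ly49G, another receptor for H-2D, showed a wider spread in WT NKT1 cells. Its libraries had 248, 129 and 188 CPM, against 2.25, 0.874 and 1.78 CPM in NKT2. In NKT17 it had 0, 4 and 0 counts. NKT1 exceeded NKT2 by 115-fold (log2 6.85, SE 0.41, adjusted p = 1.46e-10).

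Klra3, encoding the broadly class I-binding Ly49C, was at 587, 633 and 883 CPM in WT NKT1, at 16.8, 12.8 and 12.9 CPM in WT NKT2 and at 0.586, 1.04 and 0.137 CPM in WT NKT17. Its NKT1 level was 49.5-fold its NKT2 level (log2 5.63, SE 0.32, adjusted p = 9.51e-10). Klra9 had 63.4, 60.7 and 89.1 CPM in WT NKT1 and 1.45 to 1.64 CPM in WT NKT2, a 45.7-fold difference. Klra10 had 43.9, 56.3 and 67.7 CPM in WT NKT1, 5 or 6 counts per WT NKT2 library and 0 counts in all 6 NKT17 libraries. These 3 genes are the ones whose sequences overlap most.

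Klra5 encodes Ly49E, the Ly49 receptor also carried by fetal NK cells. It was at 853, 620 and 801 CPM in WT NKT1 and at 40.3, 29.5 and 16.5 CPM in WT NKT2. In WT NKT17 it had 1, 3 and 0 counts. NKT1 exceeded NKT2 by 26.3-fold (log2 4.73, SE 0.29, adjusted p = 3.23e-09), the smallest of the 6 fold differences.

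Levels of different genes can be compared only per length. Per kilobase of transcript, WT NKT1 cells fell into 3 tiers. Klra5 (660 ± 106 CPM per kb, SD, n = 3) and Klra3 (566 ± 129) overlapped at the top, Klra1 (237 ± 26.4) and Klra7 (181 ± 57.4) overlapped in the middle, and Klra10 (68.0 ± 14.4) and Klra9 (59.2 ± 13.0) overlapped at the bottom. No tier overlapped the next. The lengths are those of GENCODE M1 transcript 001, 1667 bases for Klra1 and 1042 for Klra7. Which annotation was used for counting is not known. Not divided by length, Klra1 (348 to 435 CPM) and Klra7 (129 to 248 CPM) did not overlap. In WT NKT2, Klra5 (25.0 ± 10.4 CPM per kb) was above Klra3 (11.4 ± 1.83) without overlap. In SKG NKT1 cells Klra3 was first (244 ± 25.4 CPM per kb), Klra5 was below it without overlap (193 ± 25.5), Klra1 (34.2 ± 4.81), Klra10 (26.8 ± 3.40) and Klra9 (24.3 ± 5.17) followed, and Klra7 was last at 10.7 ± 0.748. Klra7 thus went from the middle tier in WT to below every other detected member in SKG, with no overlap with any of them. The places of Klra3, Klra9 and Klra10 rest on uncertain counts, as most of their windows occur in another gene. How far this shaped the order was not tested.

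**Figure D2:**
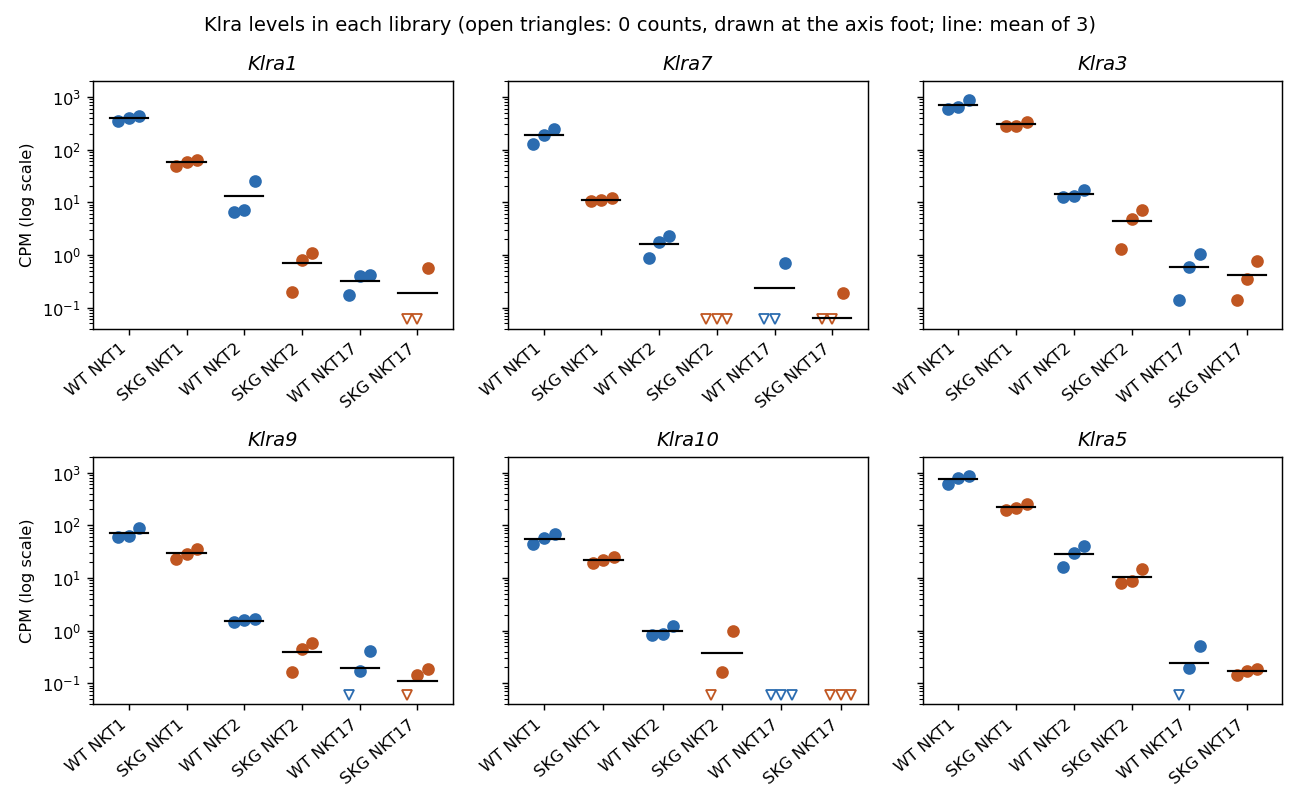
CPM on a log scale (y axis) of the 6 detected Klra genes in each library of the 6 groups (x axis), WT in blue and SKG in orange, with the mean of 3 libraries as a line. In NKT1 the 3 SKG libraries lie below the 3 WT libraries for every gene, from 10.4 to 12.0 CPM against 129 to 248 CPM for Klra7 to 284 to 339 CPM against 587 to 883 CPM for Klra3.

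In NKT1 cells, the Klra genes were lower in SKG than in WT mice. The 7 genes together gave 597 to 685 CPM per SKG NKT1 library, below the WT range given above. All 6 genes tested were called lower, beside 1.82% of all genes called lower in that comparison. For each of the 6, the 3 SKG libraries lay below the 3 WT libraries, as they did for 8.68% of all genes tested.

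Of the 6, the estimated fall in NKT1 was largest for Klra7. SKG libraries had 10.4, 11.0 and 12.0 CPM, 16.9-fold below WT (log2 fold change -4.08, SE 0.33, adjusted p = 7.81e-07). Klra1 followed, with 48.1, 63.7 and 59.1 CPM, 6.92-fold below WT (log2 -2.79, SE 0.38, adjusted p = 0.000862). These 2 are the genes with the smallest share of windows found elsewhere.

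Klra5 was at 253, 196 and 215 CPM in SKG NKT1, 3.43-fold below WT (log2 -1.78, SE 0.25, adjusted p = 0.000874). Klra3 was at 284, 285 and 339 CPM, 2.32-fold below WT (log2 -1.21, SE 0.25, adjusted p = 0.0158). Klra9 (23.1 to 35.5 CPM) was 2.44-fold lower (log2 -1.28, SE 0.28, adjusted p = 0.00962), and Klra10 (19.4 to 24.9 CPM) was 2.54-fold lower (log2 -1.34, SE 0.34, adjusted p = 0.0374). The call of Klra10 was lost when WT NKT1 replicate 2 (adjusted p = 0.103) or 3 (0.139), or SKG NKT1 replicate 1 (0.148) or 2 (0.167), was left out of the edgeR fit.

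**Figure D3:**
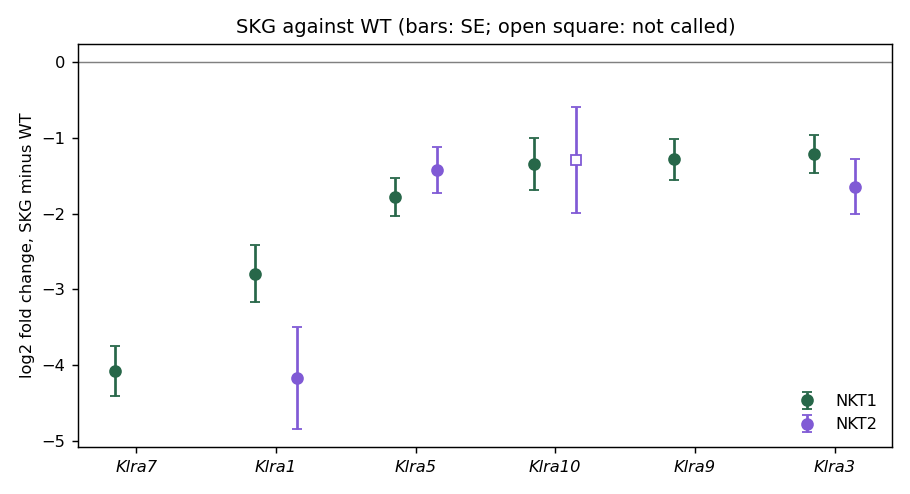
Log2 fold change of SKG against WT (y axis, negative means lower in SKG) for each Klra gene (x axis) in NKT1 (green) and NKT2 (purple), with standard errors. Klra7 and Klra9 have no NKT2 point because every SKG NKT2 library was at 3 counts or fewer, and the open square, Klra10 in NKT2, was not called.

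The genes did not fall in step. Within a library, the ratio of 2 counts does not depend on depth or scaling. Klra7 stood at 42.3%, 20.4% and 21.3% of Klra3 in the WT NKT1 libraries, and at 3.66%, 3.88% and 3.53% in the SKG NKT1 libraries. Klra1 stood at 45.3% to 74.2% of Klra3 in WT and at 16.9% to 22.4% in SKG. Klra7 stood at 37.0% to 57.1% of Klra1 in WT and at 17.3% to 21.6% in SKG. None of these ranges overlapped. With 3 libraries against 3, an exact two-sided permutation test cannot give a p below 0.10.

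Klra9 and Klra10 held nearly the same share of Klra3 in both genotypes. Klra9 counts were 8.13% to 10.8% of Klra3 counts in the 6 NKT1 libraries (mean 10.2% in WT and 9.58% in SKG), and 9.76% to 12.3% in the WT NKT2 libraries, where Klra9 had 8 or 9 counts. Klra10 counts were 6.81% to 8.90% of Klra3 counts in the NKT1 libraries, and 6.25% to 7.32% in WT NKT2. Beside this stand the windows shared with up to 2 mismatches, 86.1% of the Klra3 windows and 90.2% of the Klra10 windows being found in Klra9. Without the Klra9 transcript that runs over Klra3 these were 69.0% and 79.1%. Whether reads of one gene were counted for another was not tested.

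**Figure D4:**
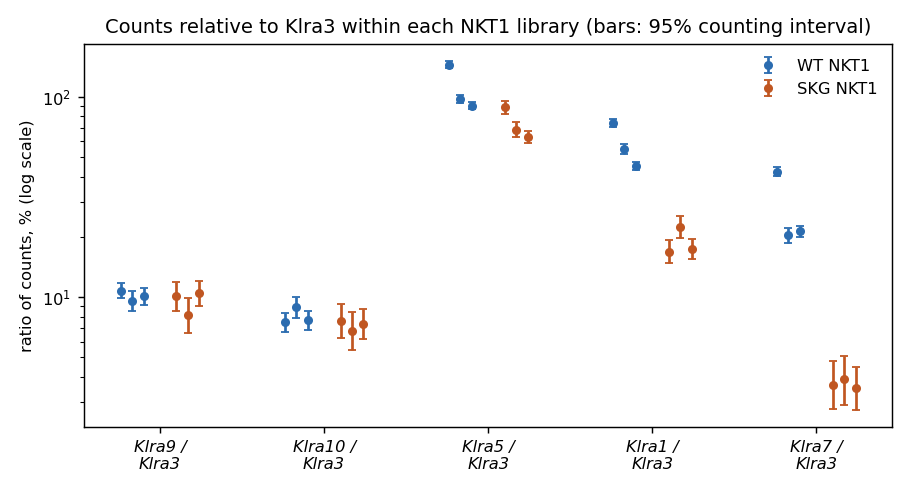
Counts of 5 Klra genes as a percentage of Klra3 counts in the same library (y axis, log scale) in the 3 WT (blue) and 3 SKG (orange) NKT1 libraries, with 95% exact binomial intervals that cover counting error only. Klra9 and Klra10 stay within 6.81% to 10.8% in all 6 libraries, while Klra7 goes from 20.4% to 42.3% in WT to 3.53% to 3.88% in SKG.

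The make-up of the Klra counts differed accordingly. These shares are not scaled by transcript length, so they compare each gene between genotypes, not different genes with each other. Of all Klra counts in a WT NKT1 library, Klra5 made up 34.9% ± 2.87 (SD, n = 3), Klra3 32.3% ± 5.30, Klra1 18.3% ± 1.61 and Klra7 8.62% ± 2.21. In SKG NKT1, Klra3 made up 47.0% ± 2.79, Klra5 34.4% ± 4.16, Klra1 8.91% ± 1.63 and Klra7 1.73% ± 0.120. The Klra3 and Klra1 shares did not overlap between genotypes, and the Klra5 shares did.

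In NKT2 cells the Klra genes were low, and lower still in SKG mice. The genotype call was made for 5 of the 6 genes, beside 4.05% of all genes called lower. With only the NKT2 libraries fitted, Klra7, Klra9 and Klra10 did not pass the filter on low counts, and Klra1, Klra3 and Klra5 kept their calls. Klra5 was at 8.81, 15.1 and 8.03 CPM in SKG, 2.70-fold below WT (log2 -1.43, SE 0.30, adjusted p = 0.00659). Klra3 was at 1.32, 7.05 and 4.82 CPM, 3.22-fold below WT (log2 -1.64, SE 0.36, adjusted p = 0.00857). Klra1 was at 1.10, 0.196 and 0.803 CPM, 18.7-fold below WT (log2 -4.17, SE 0.67, adjusted p = 0.000991). Without WT NKT2 replicate 1 the log2 fold change of Klra1 was -3.27 (adjusted p = 1.85e-05). None of these 3 genes overlapped between WT and SKG, and 16.2% of all genes tested had every SKG NKT2 library below every WT NKT2 library.

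Klra7 had 0 counts in every SKG NKT2 library against 11, 5 and 11 counts in WT, at least 2.83-fold lower (adjusted p = 0.00351). Klra9 had 2, 3 and 1 counts against 8, 9 and 9, at least 2.70-fold lower (adjusted p = 0.0319), and its call was lost without SKG NKT2 replicate 3 (adjusted p = 0.172). Klra10, with 0, 5 and 1 counts against 6, 5 and 5, was not called (log2 -1.29, SE 0.70, adjusted p = 0.314). It was called when SKG NKT2 replicate 2, the library with 5 counts, was left out (log2 -3.10, adjusted p = 0.0457).

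Markers of NKT1 and NK cells were also compared between WT and SKG NKT2. The summed NKT1 markers were at 299 to 424 CPM in WT NKT2 and 211 to 304 CPM in SKG NKT2, ranges that overlapped. Of the 6, 2 were called lower in SKG, Il2rb and Klrd1, beside 4.05% of all genes. The 10 NK cell markers summed to 11.6 to 14.5 CPM in WT NKT2 and 7.83 to 8.99 CPM in SKG NKT2, with 2 of the 10 at 0 in each group. Of the 8 NK cell markers tested, 1 was called lower in SKG (Klrb1c) and 1 higher (Prf1, the perforin gene). Of all genes, 4.05% were called lower and 3.90% higher. Prf1 had at most 2 counts per WT library and 1.52 CPM in SKG (adjusted p = 0.0829). The median log2 fold change of the 8 markers was -0.19. The part of these in the Klra values was not tested.

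Between WT and SKG NKT1 cells, marker values also differed. The summed NKT1 markers were at 4808 to 5607 CPM in WT and 3948 to 4390 CPM in SKG, and none of the 6 was called between the genotypes by edgeR at the thresholds above. The NK cell markers summed to 1007 to 1778 CPM in WT and 750 to 1145 CPM in SKG. Of the 8 tested, 1 was called lower, beside 1.82% of all genes. It was Ncr1, the activating receptor NKp46 (134 CPM in WT and 31.0 in SKG). Eomes, a transcription factor of NK cells, was at 1.06 to 4.23 CPM in WT NKT1 and 0 to 0.866 CPM in SKG NKT1, and did not pass the filter. Of the 6 NKT2 markers, 2 were called higher in SKG NKT1, beside 1.46% of all genes. Il4 was at 15.3 CPM in WT and 47.5 CPM in SKG (adjusted p = 0.00614), and Il13 had at most 1 count per WT library and 0.810 CPM in SKG (adjusted p = 0.0688). Their part in the Klra result was not tested.

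In NKT17 cells the Klra genes were at the limit of detection in both genotypes. No library had more than 6 counts of any of them. The edgeR test called 0 of the 6 between SKG and WT, where 4.54% of all genes were called lower, and none had an unadjusted p under 0.05 in edgeR or DESeq2. Klra3 had 3, 6 and 1 counts in WT and 1, 2 and 4 counts in SKG.

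The subset order seen in WT was also found in SKG between NKT1 and the others. All 6 genes were called again for NKT1 over NKT2 (10.0% of all genes) and for NKT1 over NKT17 (10.2%). Klra3 was 68.9-fold and Klra5 20.8-fold higher in SKG NKT1 than in SKG NKT2. Between SKG NKT2 and SKG NKT17, 3 of 6 were called higher (8.27% of all genes), namely Klra3, Klra5 and Klra10. With only these libraries fitted, Klra5 kept its call and the other genes did not pass the filter on low counts. Klra3 was 10.6-fold and Klra5 at least 21.1-fold higher, and without SKG NKT17 replicate 3 the log2 fold change of Klra3 went from 3.46 to 4.14. Klra10 had 0, 5 and 1 counts against 0, 0 and 0, and its call was lost without SKG NKT2 replicate 2 (adjusted p = 0.382) or SKG NKT17 replicate 1 (0.102), so no fold is given.

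The size of the SKG difference was compared between subsets directly. None of the 6 genes was called in edgeR's test of the difference between NKT2 and NKT1 (3.87% of all genes called), between NKT17 and NKT1 (4.17%) or between NKT17 and NKT2 (2.19%). No unadjusted p was under 0.05 in edgeR in any of these, and DESeq2 called 0, with 0, 0 and 1 unadjusted p under 0.05. For Klra1 the SKG effect in NKT2 minus that in NKT1 was -1.38 on the log2 scale (SE 0.85, adjusted p = 0.529). For Klra3 it was -0.43 (SE 0.44, adjusted p = 0.749), and for Klra5 0.35 (SE 0.40, adjusted p = 0.785). Values past no threshold here do not show that the subsets responded alike.

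Few other Ly49 genes had counts. Of 16 further names from the cluster, 4 had a count. The rest had no count or no row in the count table, which were not told apart. Of the 4, 1 was tested, Gm156, a gene of the same cluster. It was at 10.7 to 21.6 CPM in WT NKT1 and had at most 2 counts per SKG NKT1 library, at least 27.9-fold lower (log2 -6.25, SE 0.85, adjusted p = 0.000266). It had at most 2 counts in any library of the other subsets.

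Lectin-like NK receptors outside the Ly49 family were partly lower in SKG NKT1 as well. Of 14 listed, 12 were tested, 5 were called lower and 0 higher, beside 1.82% of all genes called lower and 1.46% higher. The median log2 fold change of the 12 was -1.20, beside -0.01 over all genes tested. Klre1, a chain that pairs with the Klri receptors, went from 118 to 24.7 CPM (log2 -2.25, adjusted p = 7.74e-05). Klrc1, which encodes the inhibitory receptor NKG2A, went from 163 to 44.0 CPM (log2 -1.88, adjusted p = 0.000356), and Klrc2, Klrc3 and Klrb1f were 3.74-fold, 2.97-fold and 3.29-fold lower. Klrd1, the CD94 chain that pairs with the NKG2 receptors, was at 464 to 681 CPM in WT and 328 to 379 CPM in SKG and was not called (adjusted p = 0.301). Klrk1, the activating receptor NKG2D, was at 666 to 936 CPM in WT and 542 to 712 CPM in SKG and was not called (adjusted p = 0.592).

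**Figure D5:**
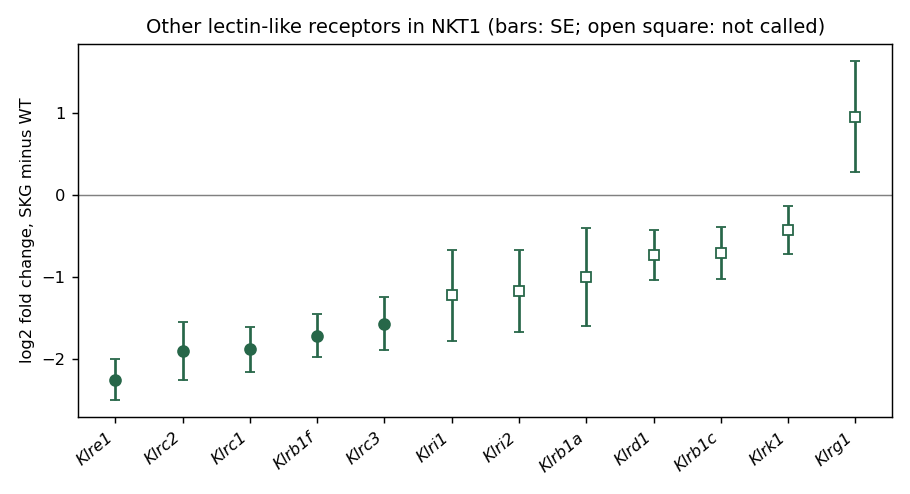
Log2 fold change of SKG against WT in NKT1 cells (y axis) of the 12 tested lectin-like receptors outside the Ly49 family (x axis), with standard errors. The 5 filled points, from Klre1 at -2.25 to Klrc3 at -1.57, were called lower, and the 7 open squares were not called.

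In NKT2, 4 of these 12 receptors were called lower in SKG (Klrd1, Klrk1, Klrb1a and Klrb1c) and 1 higher (Klrb1f). Of all genes, 4.05% were called lower there and 3.90% higher. In NKT17, 0 of the 12 were called lower (4.54% of all genes) and 2 were called higher (3.83% of all genes). These were Klrk1, from 2.29 CPM in WT to 17.7 CPM in SKG (adjusted p = 0.000886), and Klrd1, with at most 3 counts per WT library and 2.28 CPM in SKG, at least 4.50-fold higher (adjusted p = 0.0594). Of the 8 tested markers of NK cells, 1 was called higher in the same SKG NKT17 libraries. So were 1 of 1 tested for B cells and 1 of 2 for double-positive thymocytes, and 0 in these lists were called lower. They were Prf1 of NK cells (4.75 to 27.2 CPM, adjusted p = 0.000285), Cd79b of B cells (9.20 to 34.6 CPM, adjusted p = 0.00264) and Cd8b1 of double-positive thymocytes (6.54 to 22.5 CPM, adjusted p = 0.0915). Klrb1c of NK cells went the other way (38.9 to 25.6 CPM) and was not called. Ncr1 of NK cells had 0 counts in SKG NKT17 and at most 1 per WT library. Of 5 listed B cell markers only Cd79b passed the filter on low counts, and Cd79a was at 0.497 CPM in WT and 0.544 CPM in SKG. Of 6 listed for double-positive thymocytes, Rag1, Rag2 and Dntt had 0 counts in NKT17 of both genotypes. Cd8a was at 1.28 CPM in WT and 5.37 CPM in SKG and was not called (adjusted p = 0.283). The part of these markers in the receptor values was not tested. The Klra genes showed no such rise in NKT17.

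Genes of inhibitory signalling and of activating adaptors were mostly not called in NKT1. The Klra genes described here carry the inhibitory motif in this reference, and the activating adaptors are not placed below them. Of the 3 inhibitory signalling genes, 0 were called by edgeR between SKG and WT, and Ptpn6, which encodes SHP-1, was at 1406 to 1813 CPM in WT and 1086 to 1756 CPM in SKG. Of the 5 activating adaptor genes, 1 was called lower, beside 1.82% of all genes. It was Fcer1g, the Fc receptor gamma chain (400 to 194 CPM, log2 -1.04, adjusted p = 0.099). Tyrobp, which encodes DAP12, was at 52.5 to 121 CPM in WT and 43.7 to 55.4 CPM in SKG and was not called (adjusted p = 0.133).

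Of the 9 tested genes of MHC class I and its loading, 2 were called lower in SKG NKT1. The share over all genes was 1.82%. This list is wider than the classical class I molecules that most Ly49 receptors bind, as it includes genes of loading. The reference genome is from a strain other than BALB/c, and the effect of that difference on these counts was not tested. H2-K1 went from 2490 to 1648 CPM (log2 -0.60, SE 0.12, adjusted p = 0.00563) and H2-Q6 from 143 to 93.6 CPM (adjusted p = 0.00938). H2-D1 was 1.29-fold lower, under the fold of 1.5 (adjusted p = 0.0999).

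Of 20 tested regulators of NK receptor expression and of iNKT subsets, 1 was called lower and 1 higher in SKG NKT1. Of all genes, 1.82% were called lower there and 1.46% higher. Id3, an inhibitor of E proteins that is induced by T cell receptor signalling, went from 24.3 to 6.04 CPM (log2 -1.99, SE 0.29, adjusted p = 0.000808). Runx1 went from 11.4 to 18.1 CPM (log2 0.67, SE 0.20, adjusted p = 0.0725). Tcf7, which encodes the TCF-1 factor that acts on Ly49 gene expression in NK cells, was at 66.1 to 94.1 CPM in WT and 57.2 to 77.3 CPM in SKG and was not called (adjusted p = 0.715). Tbx21, which encodes T-bet, was not called either (548 and 480 CPM, adjusted p = 0.902).

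Between WT NKT1 and WT NKT2, 14 of these 20 regulators were called, 8 of them higher in NKT1 and 6 lower, where 13.7% of all genes were called higher and 13.7% lower. Tbx21 was 19.4-fold and Nfil3 28.1-fold higher in NKT1, and Tcf7 was 5.52-fold and Id3 20.3-fold lower. Of the 12 lectin-like receptors, 11 had the call for a higher level in NKT1, as did 4 of the 5 adaptor genes.

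The genes whose levels were most like those of each Klra gene over the 18 libraries were ranked by Pearson's r of log2 CPM, as a description, since the 18 points share their subsets. The 3 nearest to Klra1 were Dapk2 (0.97), Samd3 (0.96) and A430084P05Rik (0.96). The nearest to Klra7 were Litaf (0.97), Styk1 (0.96) and Car2 (0.96), and those to Klra5 were 5430427O19Rik (0.98), Mvp (0.97) and Cdh1 (0.97). Klra3 lay nearest to Samd3 (0.99), Ifng (0.98) and Ctsd (0.98). Klra9 and Klra10 shared Ctsd (0.99 each) and Ctsw (0.98 each), followed by Dapk2 (0.98) for Klra9 and Fgd5 (0.98) for Klra10.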

How the data were processed

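The deposited table held read counts per gene symbol. Per the study's methods, poly(A) RNA was turned into full-length cDNA (Smart-seq2 type), tagged with Tn5 and sequenced as 50-base single reads. The authors filtered reads, aligned them with TopHat to mm9 and made the counts with htseq-count in union mode. The submitters' processing notes name Bowtie 1.0.0, TopHat 1.4.1, HTSeq 0.7.1 and the builds mm10 and hg19. The annotation and strand setting are not given in the sources used here. The Klra coordinates here come from NCBIM37 (mm9) with GENCODE M1.

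The table also held 2 columns of no listed sample, which were not used. Counts of all 18 libraries were fitted as 6 group means with edgeR 4.0.16 in R 4.3.3 (filterByExpr, TMM, robust quasi-likelihood F test, 11118 genes, 12 residual degrees of freedom). A call needed an adjusted p (Benjamini-Hochberg) under 0.1 and a fold of at least 1.5, as in the study. Alternatives were DESeq2 1.42.0, RLE and upper-quartile factors, other filters and thresholds, the compared libraries alone, a replicate block and each library left out. The script was tested on simulated data. All 7 members were described, list genes were named where called or where their role needs them (named after their values were seen), and for each member the 3 genes with the highest r (prior count 2). The members and lists were chosen with earlier results of these data known. Biopython 1.88 aligned the coding sequences. The check of the NKT17 label against its markers is not reported here.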

Additional observations from a re-analysis of the deposited data

How the results depend on the processing

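The alternatives gave 1168 values of single-gene fold changes, without those where the gene no longer passed the filter on low counts. Of these, 1160 kept their direction and their side of the threshold or stayed uncalled. Among the 1168, 7 calls were lost, 1 was gained and 0 called values reversed. The 8 that changed side are those given above for Klra9 and Klra10, each on leaving out 1 library. When only the compared libraries were fitted, 3 members in place of 5 were called for SKG against WT in NKT2, 3 in place of 6 for NKT2 against NKT17 in WT, and 1 in place of 3 for NKT2 against NKT17 in SKG, since the others no longer passed the filter on low counts. With the title code that libraries share as a replicate block, the counts of called members were the same in all comparisons (6, 5 and 0 for SKG against WT in NKT1, NKT2 and NKT17). That code pairs the libraries only in part. Of 18 pairs with the same code and genotype, 12 had correlated deviations over 0.1 (lowest -0.061), and of 18 across genotypes, 0 did. A block of the libraries that share both code and genotype was not fitted. Upper-quartile factors moved the median log2 fold change of all genes for NKT1 against NKT2 in WT from 0 to -0.10. Depth limits the NKT17 values and Klra7, Klra9 and Klra10 in NKT2, which rest on at most 11 counts per library. The fitted folds against NKT17, which rest on at most 6 counts per library, moved by over 1.5 times for Klra3, Klra5 and Klra7 without WT NKT17 replicate 2, where the log2 fold change of Klra7 for NKT2 against NKT17 went from 2.75 to 6.24. Leaving out WT NKT17 replicate 3 (Klra5, Klra7, Klra9) or SKG NKT17 replicate 1 (Klra1) or 3 (Klra1, Klra3, Klra7) moved others as far, with no call of these genes lost.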
